A study of Mus musculus with 6 samples.

Results

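The 97 immunoglobulin kappa variable (Igkv) segments described here are the rows of the deposited expression table that GENCODE release M21 annotates as immunoglobulin V genes and whose symbols start with Igkv. They are 97 of the 24906 genes listed, and 3 of the 100 such segments in that annotation were not analysed here. Polyadenylated spleen RNA was sequenced from 6 animals of the C57BL/6J strain, 12 to 16 months old, with 1 library for each. The 3 D3TA mice carried a knock-in of Ccnd3, the cyclin D3 gene, made with CRISPR/Cas9, in which threonine 283 is replaced by alanine. The line was kept heterozygous, and at this age a myeloproliferative neoplasm is advanced, per the series record. The 3 wild-type (WT) mice were matched for age. The knock-in is in the germline, so it is present in every cell type of the spleen, and the question is which spleen transcripts differ with genotype.

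A kappa light chain gene is assembled in each developing B cell by joining 1 V segment to 1 of the J segments (Igkj) upstream of the constant exon (Igkc). As a rule, the daughters of a B cell keep that join. Unrelated B cells can use the same V segment, so a V segment alone does not identify a family of cells. Mature B cells carry a moderate amount of kappa RNA, and plasma cells, which secrete antibody, carry very much. The share of each segment among all Igkv reads is called its usage. In bulk RNA it mixes how many cells chose a segment with how much RNA each of those cells makes, and fewer cells of a type and less RNA per cell cannot be told apart.

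The segments lie on chromosome 6 between bases 67609713 and 70704177 (GRCm38), from 18.4 kb to 3112 kb before Igkj1. Of the 97, 37 are on the strand of Igkc and 60 on the opposite strand. Their annotated coding sequences, each made of a leader exon and a V exon, were 338 to 371 bases long. Each was compared with the most similar other member, and identity ranged from 66.4% to 98.6% with a median of 94.2%. An exact stretch of 100 bases shared with another Igkv gene or pseudogene was found in 43 members. Reads from those 43 could be split between copies, so their single values are less certain. Only Igkv6-20 had such stretches over more than 50% of its windows.

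The stretches below are the last 60 coding bases of the segments that led the 6 libraries, of Igkv8-27, Igkv5-39 and Igkv3-2, which stood high in single libraries or in all, and of Igkv10-94, the segment with the smallest p between the groups. They are shown because the end of a V segment is what distinguishes the third hypervariable loop, the part that varies most between kappa chains. Capitals run from the last in-frame cysteine codon, which lies just before that loop, to the end of the annotated coding sequence. Sequences are from the GENCODE M21 transcripts and are written 5′ to 3′ on the coding strand.
Igkv8-30: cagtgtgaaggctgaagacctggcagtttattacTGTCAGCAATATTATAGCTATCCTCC
Igkv8-27: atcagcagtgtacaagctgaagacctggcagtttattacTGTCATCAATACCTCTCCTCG
Igkv2-109: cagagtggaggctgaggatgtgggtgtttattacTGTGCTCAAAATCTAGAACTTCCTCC
Igkv17-127: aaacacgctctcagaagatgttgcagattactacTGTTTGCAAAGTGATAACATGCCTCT
Igkv5-39: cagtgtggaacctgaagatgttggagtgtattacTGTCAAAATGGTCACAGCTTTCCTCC
Igkv3-4: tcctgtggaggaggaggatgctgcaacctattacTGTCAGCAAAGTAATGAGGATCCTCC
Igkv3-2: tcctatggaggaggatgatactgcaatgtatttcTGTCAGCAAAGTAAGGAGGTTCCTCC
Igkv10-96: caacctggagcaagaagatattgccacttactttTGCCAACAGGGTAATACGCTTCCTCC
Igkv10-94: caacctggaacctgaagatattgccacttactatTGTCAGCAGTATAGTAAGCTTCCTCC
These lie at chr6:70117061-70117120 (Igkv8-30, minus strand), chr6:70171809-70171868 (Igkv8-27, minus), chr6:68303099-68303158 (Igkv2-109, plus), chr6:67861600-67861659 (Igkv17-127, plus) and chr6:69900424-69900483 (Igkv5-39, minus). The others lie at chr6:70672318-70672377 (Igkv3-4, plus), chr6:70699008-70699067 (Igkv3-2, plus), chr6:68631963-68632022 (Igkv10-96, minus) and chr6:68704508-68704567 (Igkv10-94, minus), all in GRCm38. The capital part was 26 bases long in 64 of the 97 members and 28 bases in 21, and it was 21 bases in Igkv8-27. Over the whole coding sequence, Igkv10-96 and Igkv10-94 were 95.4% identical, Igkv3-4 and Igkv3-2 were 91.4% identical, and Igkv8-30 and Igkv8-27 were 87.1% identical. Neither Igkv2-109 nor Igkv3-4, on which much of the unequal usage rests, shares an exact stretch of 100 bases with another annotated Igkv sequence.

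Libraries held 14944622 to 19456838 reads assigned to genes, and values are normalized counts, that is, reads divided by a size factor for each library. The number of genes with no read was 8449 in WT-2 and 3193 to 5170 elsewhere. Hemoglobin genes took over 6% of reads in D3TA-1 (6.39%), D3TA-2 (6.75%) and WT-3 (6.57%), and 1.40% to 1.91% in the others. Reads of Y-linked genes, which mark male animals, summed to 2355 in D3TA-3 and 2628 in WT-1 and to 0 to 20.1 in the others. Some results that rest on D3TA-1 or WT-2 are also given without them. Values of a group are listed in the order of mice 1, 2 and 3.

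Summed Igkv counts were lower on average in spleens of D3TA mice, but the groups overlapped. They came to 10.96% to 31.6% of the count of Igkc, a part that varied by library, as given below. The summed normalized count of the 97 segments was 12181, 36229 and 47220 in the D3TA mice. The WT mice gave 102126, 31268 and 75218. WT-2 thus lay below D3TA-2 and D3TA-3, and D3TA-1 was the lowest of all. The group means were 31877 ± 17920 for D3TA and 69537 ± 35769 for WT (n = 3 each, SD), a 2.18-fold lower mean in D3TA, and the log2 ratio of the means was -1.13. It was -1.09 without both D3TA-1 and WT-2. Where hemoglobin was above 5% of reads, the WT mean was 3.11-fold the D3TA mean, and where it was below, 1.41-fold. In each of these, 1 genotype is a single library. With each library's own top 5 segments left out, the summed counts were 7136, 15488 and 24606 in D3TA and 64708, 17393 and 50444 in WT. The log2 ratio of the group means was then -1.49, while their difference, D3TA minus WT, went from -37660 to -28438. The groups still overlapped. The lower ratio follows from the larger part that the top 5 segments held in D3TA on average, given below.

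**Figure D1:**
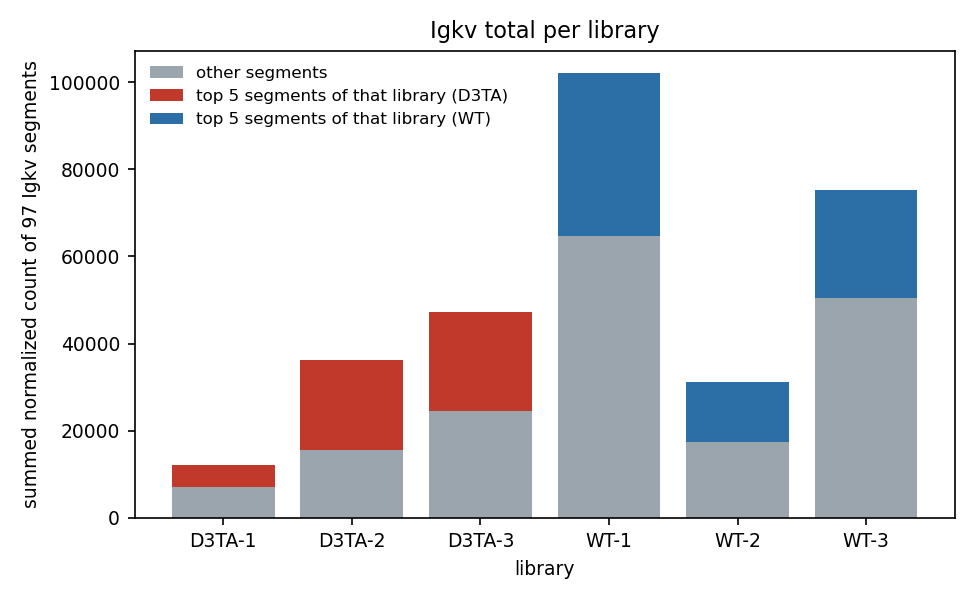
Summed normalized count of the 97 Igkv segments in each library (y axis), with the top 5 segments of that library in color and the other segments in grey. D3TA-1 is lowest at 12181, WT-1 highest at 102126, and WT-2, at 31268, lies among the D3TA libraries.

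Across single segments, most differences pointed to lower levels in D3TA, and no segment passed the test over all genes. Of the 97 segments, 88 were tested, those that reached a normalized count of 10 in 3 or more libraries. Of these 88, 62 reached that level in all 6 libraries, while 2, Igkv11-125 and Igkv4-92, did so in the 3 WT libraries alone and had to differ for that reason. In limma, 80 of the 88 lay below 0 in D3TA minus WT, where 45.5% of all 15564 tested genes did. At a Benjamini-Hochberg adjusted p under 0.05, limma called 0 of the 88 (0% of all genes), and the smallest adjusted p was 0.0945. At an unadjusted p under 0.05 it gave 30 lower segments, where 3.83% of all genes were lower at that level, and 0 higher ones. In 14 of the 88, or 15.9%, each D3TA library lay below each WT library, against 6.84% of all tested genes. Without genes that reached the filter in 1 group alone, which leaves 86 segments, these counts were 12 (13.95%, against 6.60% of all genes) without overlap and 28 (32.6%, against 3.73%) at an unadjusted p under 0.05. None of the 88 showed the opposite arrangement, which 8.18% of all tested genes did. The median log2 difference of the 88 was -1.48, a 2.78-fold lower level, and that of all tested genes was 0.06. The 88 segments belong to 1 locus measured in the same 6 mice, so these counts are not of independent genes. The median count of the 88 in each library was 58.9, 110 and 172 in D3TA and 626, 133 and 503 in WT. By that median WT-2 lay below D3TA-3, so the groups overlapped.

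Other tests on recovered reads differed in how many segments they called. The edgeR quasi-likelihood test called 0 (40 lower at an unadjusted p under 0.05, where 3.98% of all genes were, and 0 higher). The limma-voom test called 0 (26 lower, where 3.68% of all genes were, and 0 higher), and DESeq2 called 16 of 91 with an adjusted p, all lower (0.705% of all genes were called lower). Without D3TA-3, limma called 13 segments, all lower (0.376% of all genes). With no filter it called 2, both lower (0.0723%). The 30 segments at an unadjusted p under 0.05 became 53 without WT-2 (2.67% of all genes were lower at that level). They became 19 without D3TA-1 (2.05%), 19 without WT-1 (3.69%) and 19 without WT-3 (3.69%). Without WT-2 the median log2 difference was -2.14, and with D3TA-1 also left out it was -1.75, with 50 segments lower at an unadjusted p under 0.05 (1.74% of all genes). The set of tested genes differs a little between these fits.

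**Figure D2:**
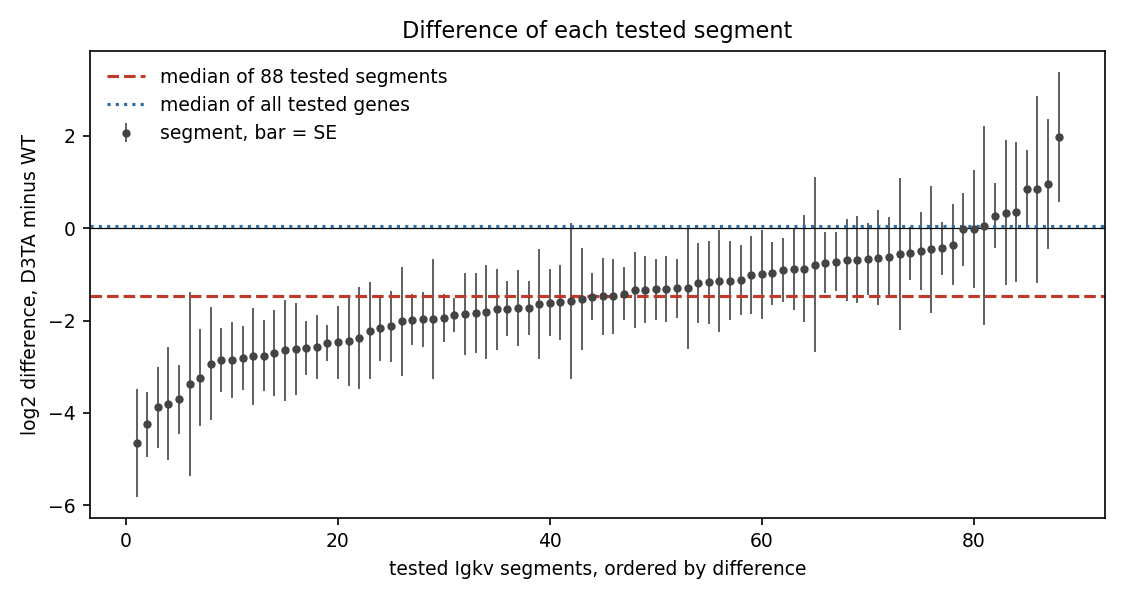
Log2 difference (D3TA minus WT, log2 of normalized count + 1) of the 88 tested Igkv segments, ordered by size, with limma's standard error as bars. The dashed line is their median at -1.48 and the dotted line the median of all tested genes at 0.06, and 80 segments lie below 0.

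Igkv3-4 had the largest share of Igkv reads over the 6 libraries and one of the largest differences. This segment (ENSMUSG00000096715, bases 70671788 to 70672377) lies 50.2 kb before Igkj1. Its normalized counts were 206, 219 and 538 in D3TA and 17481, 5561 and 1732 in WT. All WT libraries lay above all D3TA libraries, and the WT mice also differed widely among themselves. The log2 difference was -4.25 ± 0.71 (SE), a 19.0-fold lower level, with a limma adjusted p of 0.0945. It was called in limma with a hemoglobin term (log2 difference -3.61, adjusted p 0.0313; 0.00643% of all genes were called lower), with a Y-linked term (-4.25, 0.0159; 0.0129%), without D3TA-3 (-4.69, 0.0466) and in DESeq2 (-4.69, 5.95e-11). It was not called in the other alternatives, where its adjusted p ran from 0.0766 with a pseudocount of 5 to 0.631 with D3TA-1 and WT-2 left out. The difference was -3.42 without WT-1 and -5.09 without WT-3. As usage, Igkv3-4 made up 1.69%, 0.605% and 1.14% of Igkv reads in D3TA and 17.1%, 17.8% and 2.30% in WT. It led WT-1 and WT-2, whereas in WT-3 its share was closer to those of the D3TA libraries.

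Igkv10-94 (ENSMUSG00000096490), a segment of the small Igkv10 subgroup, had the smallest p of all members. It was at 116, 327 and 220 in D3TA and at 1261, 901 and 1314 in WT, so the groups did not overlap. Its log2 difference was -2.49 ± 0.40 (SE), 5.61-fold lower, with a limma adjusted p of 0.0945, and 12.9% of its 100-base windows are shared with another segment. Its close relative Igkv10-96, which led WT-3, was at 511, 919 and 1308 in D3TA and at 1465, 796 and 8022 in WT. Those groups overlapped, and the log2 difference was -1.31 ± 0.71.

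Other segments came next by p among the lower ones, again with no overlap between the groups. Igkv8-21 was at 111, 166 and 169 in D3TA and at 657, 375 and 642 in WT, a 3.69-fold lower level (limma adjusted p 0.119). Igkv4-69 was at 12.9, 7.07 and 22.5 in D3TA and at 144, 506 and 77.3 in WT. Igkv11-125, the only member of its subgroup, reached the filter in the WT libraries alone, so its groups could not overlap. It was at 1.07, 5.05 and 9.51 in D3TA and at 133, 74.98 and 40.6 in WT. The D3TA-1 value of Igkv11-125 is 1 read, below the 3.21 that 3 reads amount to there. Igkv3-5 was at 170, 58.6 and 216 in D3TA and at 1654, 413 and 711 in WT, and 21.2% of its windows are shared. The lowest log2 difference of all, -4.64 ± 1.17, belonged to Igkv4-50, named after its values were seen, at 37.5, 15.2 and 31.1 in D3TA and at 809, 74.98 and 5066 in WT.

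Among the 8 segments above 0, none had an unadjusted p under 0.05. Igkv3-9 was at 64.3, 8.08 and 14.7 in D3TA and at 38.2, 0 and 2.90 in WT, where the 0 of WT-2 allows a level of up to 3.36. Igkv4-91 was at 311, 785 and 3303 in D3TA and at 1142, 161 and 759 in WT, with a log2 difference of 0.84 ± 0.85 (SE). Its counts overlapped, but its usage was 2.55%, 2.17% and 6.99% in D3TA against 1.12%, 0.515% and 1.01% in WT, so each D3TA share lay above each WT share. The difference in counts was -0.07 without D3TA-3. Igkv4-90 was at 16.1, 2.02 and 19.9 in D3TA and at 6.69, 0 and 18.4 in WT.

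**Figure D3:**
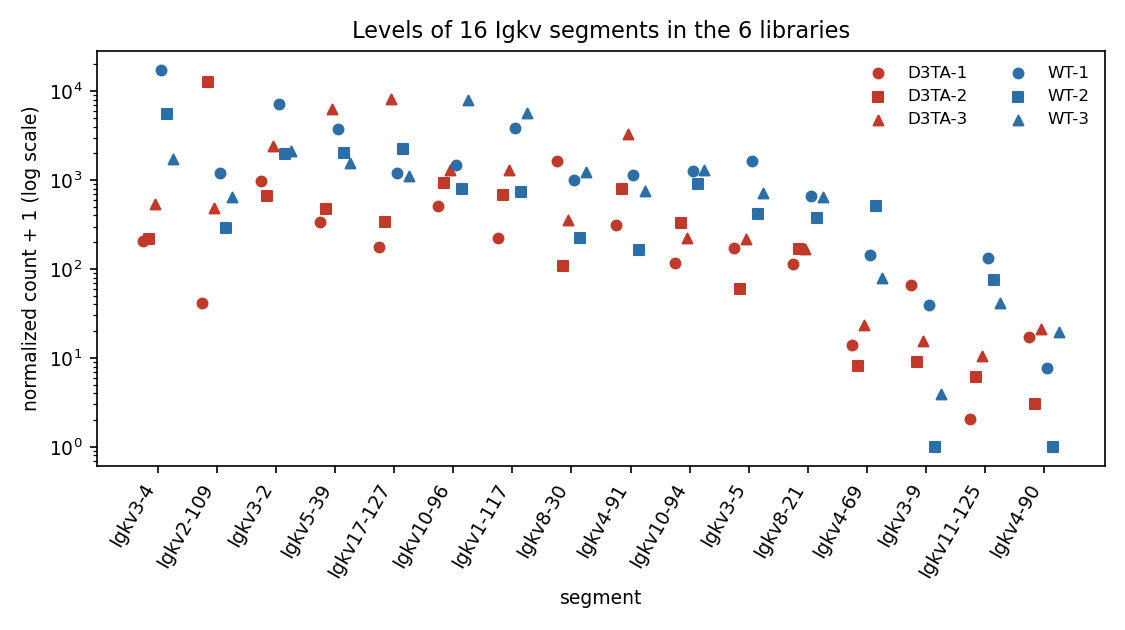
Normalized count + 1 (log axis) of 16 Igkv segments in each library, D3TA in red and WT in blue, with 1 marker per mouse, ordered by mean share. Igkv3-4, Igkv10-94, Igkv3-5, Igkv8-21, Igkv4-69 and Igkv11-125 show all red markers below all blue ones (for Igkv11-125 the filter fixed this), while Igkv2-109 has a single high marker at 12597 in D3TA-2.

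The 3 D3TA spleens were each led by a different segment, and 2 of the 3 WT spleens by the same one. The leader was Igkv8-30 in D3TA-1 with 13.5% of Igkv reads (95% Wilson interval 12.9% to 14.2%), Igkv2-109 in D3TA-2 with 34.8% (34.3% to 35.3%) and Igkv17-127 in D3TA-3 with 17.1% (16.8% to 17.4%). In WT it was Igkv3-4 in WT-1 with 17.1% and in WT-2 with 17.8%, and Igkv10-96 in WT-3 with 10.7%. These intervals cover counting error only. Per base of exon, the same segments led, with 13.6%, 34.4%, 17.4%, 17.5%, 18.1% and 10.9% in the same order of libraries.

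Igkv2-109 (ENSMUSG00000105606, bases 68302427 to 68303158) was the most unequal segment. Its normalized counts were 40.7, 12597 and 483 in D3TA and 1209, 288 and 645 in WT. Only D3TA-2 stood high, and D3TA-1 was the lowest library. Its share of 34.8% in D3TA-2 compared with 0.334% to 1.18% in the other 5 libraries. The log2 difference between groups was 0.06 ± 2.16 (SE), and -2.10 without D3TA-2. In the same mouse Igkv8-27, named after its values were seen, was at 4932, or 13.6% of Igkv reads, against 0.373% to 1.09% elsewhere. Together these 2 segments made up 48.4% of the Igkv reads of D3TA-2.

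In D3TA-3, Igkv17-127 (ENSMUSG00000076508) and Igkv5-39 (ENSMUSG00000076569) stood out. Igkv17-127 was at 177, 338 and 8080 in D3TA and at 1212, 2236 and 1110 in WT. Igkv5-39 was at 338, 469 and 6329 in D3TA and at 3718, 1993 and 1554 in WT. For both, D3TA-1 and D3TA-2 lay below every WT library and D3TA-3 above every one. Without D3TA-3 their log2 differences were -2.56 and -2.50, against -0.88 and -1.17 with it. Leaving out the 1 high D3TA library lowers them by construction, so this is no test of the segments. In D3TA-1, Igkv8-30 (ENSMUSG00000076577) was at 1651, against 108 and 355 in D3TA-2 and D3TA-3 and 1001, 219 and 1219 in WT. It took 13.5% of a small Igkv total there, and at most 1.62% elsewhere.

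Counted over all members, 16 segments held at least 1% of Igkv reads in 1 library and at least 5 times their median share in the other 5. With each segment counted only for the library where its share was highest, they were 6 in D3TA-1, with 32.6% of its Igkv reads together, 2 in D3TA-2 with 48.4%, 2 in D3TA-3 with 24.1%, 2 in WT-1 with 6.59%, 2 in WT-2 with 19.4% and 2 in WT-3 with 9.52%. One of those of WT-2 was Igkv3-4, which at 17.1% was nearly as high in WT-1. Other segments, such as Igkv3-2, were used in every spleen. Igkv3-2 (ENSMUSG00000095351) was the only segment among the top 10 of all 6 libraries, at 1.81% to 8.02% of Igkv reads. Its counts were 977, 657 and 2418 in D3TA and 7105, 1965 and 2110 in WT. Igkv1-117 (ENSMUSG00000094335) joined it in the top 10 of all 3 WT libraries, and Igkv10-96 in that of all 3 D3TA libraries. Igkv1-117 was at 222, 678 and 1291 in D3TA and 3862, 731 and 5717 in WT.

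**Figure D4:**
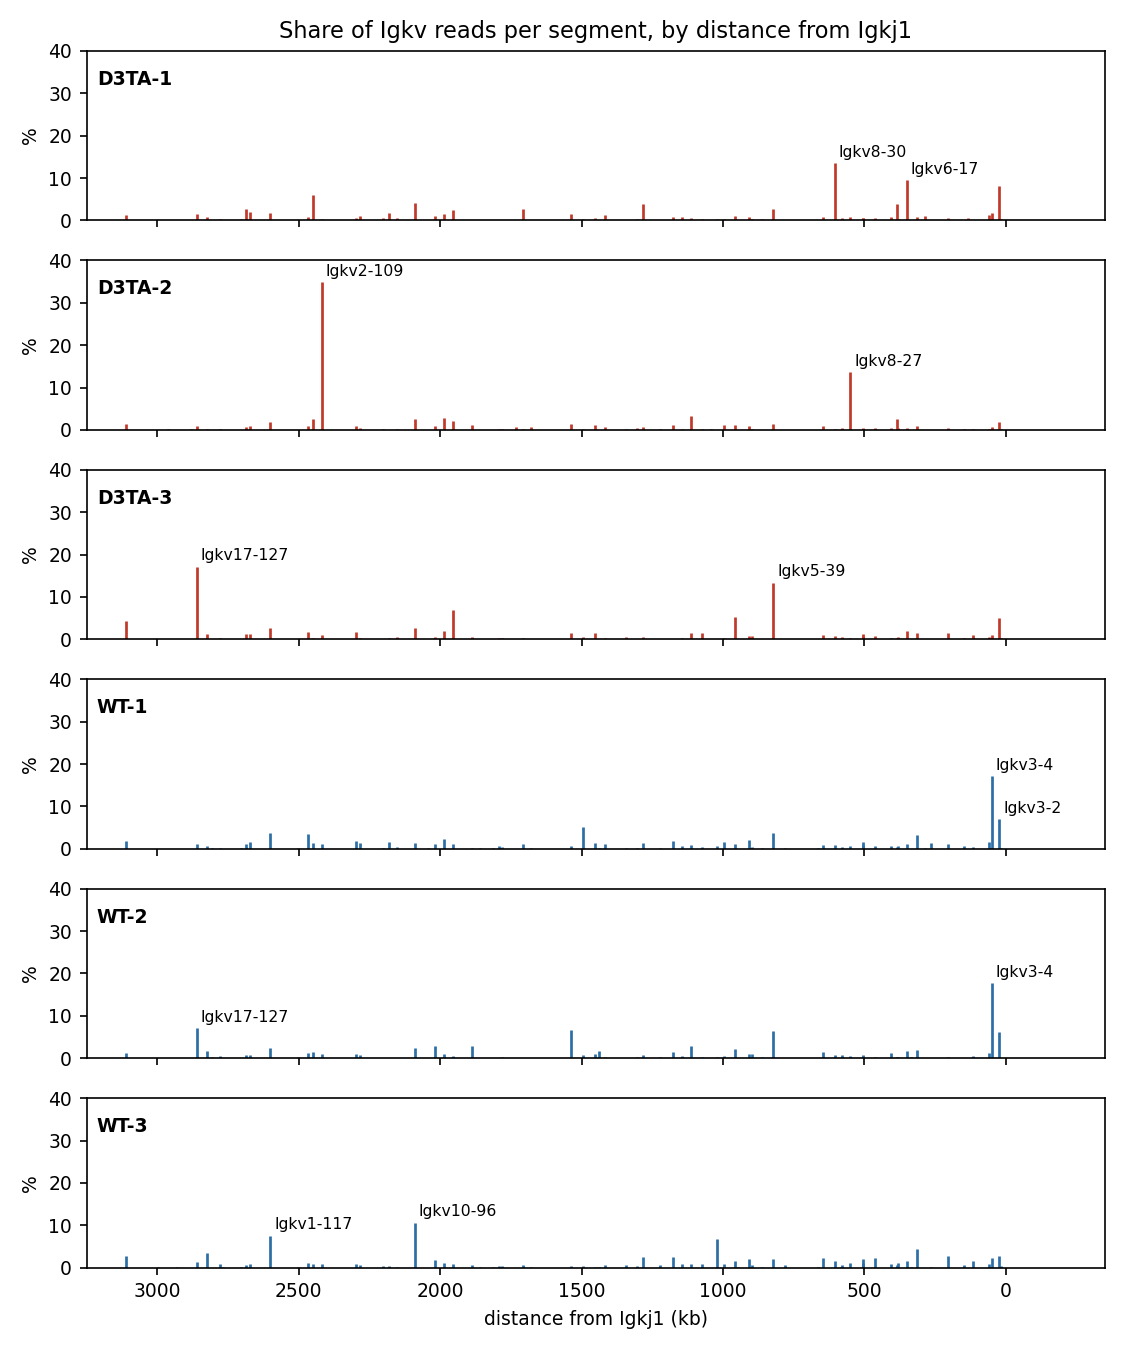
Share of Igkv reads (y axis, %) of each segment in each library, placed by its distance from Igkj1 (x axis, kb), with the 2 leading segments of each library labelled. The tallest bar is Igkv2-109 in D3TA-2 at 34.8%, and Igkv3-4 near Igkj1 leads WT-1 and WT-2.

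The top segments took a larger part of the Igkv reads in D3TA on average, with overlap between the groups. The top 5 segments of each library held 41.4%, 57.3% and 47.9% in D3TA and 36.6%, 44.4% and 32.9% in WT. WT-2 lay above D3TA-1, so the groups overlapped. The means were 48.9 ± 7.96% and 38.0 ± 5.84% (SD, n = 3 each), a difference of 10.9 percentage points that fell to 6.67 without D3TA-2 and was 17.8 with D3TA-1 and WT-2 left out. The effective number of segments, the inverse Simpson index, says how many equally used segments would give the same unevenness. It was 20.3, 6.80 and 15.3 in D3TA and 20.5, 17.3 and 28.4 in WT. The difference in means of -7.96 was -4.31 without D3TA-2, -4.80 without WT-3 and -13.4 with D3TA-1 and WT-2 left out. The share of the second segment, singled out after its values were seen, did not overlap, at 9.56% to 13.6% in D3TA and 6.96% to 7.60% in WT.

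**Figure D5:**
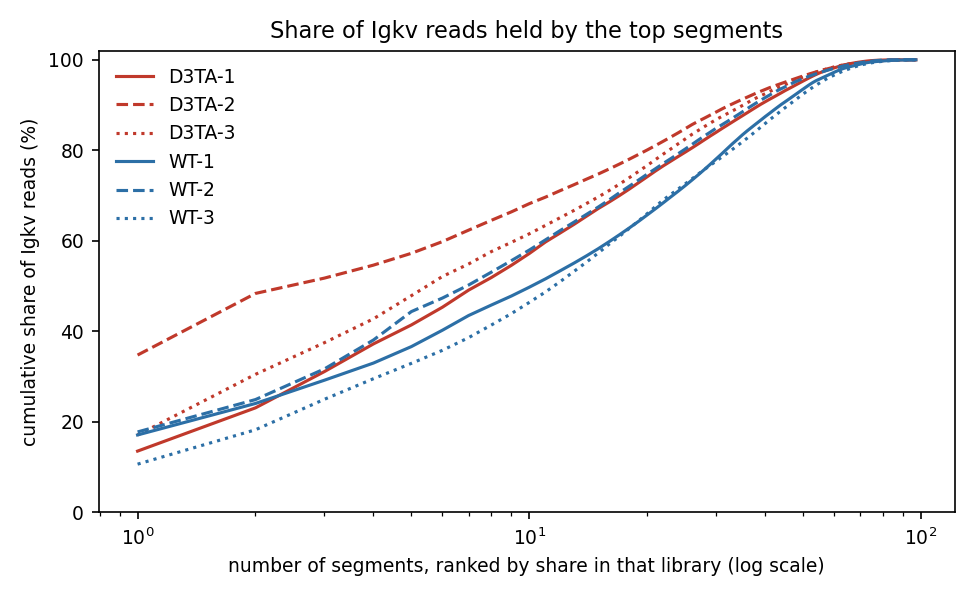
Cumulative share of Igkv reads (y axis, %) held by the top segments of each library (x axis, number of segments, log scale), D3TA in red and WT in blue. The D3TA-2 curve starts at 34.8% and stays highest, and the WT-3 curve starts lowest at 10.7%.

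The likeness of usage between mice depended on the measure. Over the 88 tested segments, Spearman's rho of the shares was 0.66 to 0.75 for the 3 pairs of D3TA libraries, 0.73 to 0.76 for the 3 pairs of WT libraries and 0.65 to 0.79 for the 9 mixed pairs. These describe segments of 1 locus whose shares sum to a whole, and they are not independent. The share of Igkv reads that 2 libraries had in common, the sum over all segments of the smaller of their shares, was 39.6% to 47.5% within D3TA, 52.3% to 68.9% within WT and 39.9% to 59.0% in mixed pairs. By this measure WT-1 and WT-2, both led by Igkv3-4, were the most alike pair. The top 10 lists of 2 libraries shared 4 to 5 segments within D3TA, 3 to 4 within WT and 2 to 5 between the groups, of the 10 in each list. All 6 lists together named 32 segments.

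By subgroup, which is the first number in a segment's name and groups segments of related sequence, the Igkv3 subgroup differed most in mean share. Its 9 members held 12.5%, 3.85% and 9.73% of Igkv reads in D3TA and 28.2%, 26.9% and 11.7% in WT, so D3TA-1 lay above WT-3. The Igkv4 subgroup, with 26 members the most numerous, held 16.7%, 14.4% and 16.4% in D3TA and 17.9%, 18.5% and 20.1% in WT, with no overlap. The Igkv8 subgroup held 17.1%, 15.9% and 3.98% in D3TA, through Igkv8-30 in D3TA-1 and Igkv8-27 in D3TA-2, and 4.68% to 6.63% in WT. These subgroups were singled out among 20 after their values were seen.

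By orientation, the groups overlapped. Segments on the strand of Igkc join by deletion and the others by inversion. The former held 45.4%, 51.7% and 47.8% of Igkv reads in D3TA and 54.2%, 50.3% and 38.7% in WT. The median log2 difference was -1.37 for the 34 tested segments on the strand of Igkc and -1.52 for the 54 on the other. By distance, the 31 segments from 1000 to 2000 kb before Igkj1 held 18.5%, 18.9% and 19.7% of Igkv reads in D3TA and 21.9%, 22.9% and 22.97% in WT, so each D3TA share lay below each WT share. All 26 members of the Igkv4 subgroup are among these 31, so this is largely the Igkv4 result again and not a separate one. The 39 nearer segments held 53.2%, 30.5% and 42.0% in D3TA and 51.8%, 50.4% and 40.8% in WT. The 27 farther ones held 28.3%, 50.6% and 38.4% against 26.3%, 26.7% and 36.2%, with Igkv2-109 among them, and both of these bands overlapped. The bands were compared after earlier results of these data were known, and their shares sum to a whole. The median log2 difference was -1.61 for the 34 tested segments within 1000 kb of Igkj1, -1.40 for the 28 from there to 2000 kb and -1.32 for the 26 beyond.

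Elsewhere in the kappa locus, Igkc had a log2 difference nearer 0 than the median segment, and the J segments varied. Igkc (ENSMUSG00000076609, bases 70726435 to 70726966), the constant exon carried by every kappa transcript, was at 111148, 190953 and 182040 in D3TA and at 323030, 134299 and 249561 in WT. The groups overlapped through WT-2, and the log2 difference was -0.50 ± 0.43 (SE), with a limma adjusted p of 0.737. The Igkv total came to 10.96%, 19.0% and 25.9% of the Igkc count in D3TA and to 31.6%, 23.3% and 30.1% in WT, so D3TA-3 lay above WT-2. Igkv totals and usage describe these counted reads only, and the cause of the varying part was not tested. The J segments are short and gave few reads. Igkj1 was at 41.8, 17.2 and 52.7 in D3TA and 265, 54.8 and 83.1 in WT, and Igkj2 at 12.9, 39.4 and 32.8 and at 105, 48.1 and 51.2, both without overlap. Igkj3, Igkj4 and Igkj5 overlapped, with log2 differences of 0.97 ± 1.35, -0.32 ± 0.65 and -0.14 ± 0.97. Igkj1 made up 7.02% of the Igkj counts in D3TA-2 and 25.1% to 52.9% in the other libraries, while Igkj5 made up 36.0% in D3TA-2 and 7.59% to 28.4% elsewhere.

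Markers of B cells lay below 0 throughout, and those of plasma cells in part. Of all tested genes, 45.5% lay below 0 and 3.83% were lower at an unadjusted p under 0.05 in limma. All 17 B cell genes listed were tested and lay below 0. Of them, 12 had an unadjusted p under 0.05 and 0 an adjusted p under 0.05 in limma. Their summed counts were 142623 to 299377 in D3TA and 339701 to 628003 in WT, and no marker was at 0 in all libraries. Cd79a, a signalling chain of the B cell receptor, was at 2766, 7523 and 6767 in D3TA and 22915, 19746 and 17043 in WT. In 11 of the 17 the groups did not overlap, where 6.84% of all tested genes were lower without overlap. Cd22 (-0.18 ± 0.40, SE) and Cd72 (-0.04 ± 0.32) differed little and overlapped, and Cr2, Pax5, Cd74 and Ighm overlapped too. Ighm, the largest member of the B cell sums, was at 129329 in WT-2 and 150541 in D3TA-3. Of 15 plasma cell genes, 10 lay below 0, and 3 had an unadjusted p under 0.05, all lower, with 0 at an adjusted p under 0.05. Summed, they were at 41720 to 92214 in D3TA and 108633 to 118986 in WT. Jchain, which joins IgM and IgA units, was at 23773, 56367 and 49998 in D3TA and 78102, 84077 and 68583 in WT, while Xbp1, a regulator of secretion, was at 3683 to 5899 and 4716 to 6639. WT-2, with an Igkv total below those of D3TA-2 and D3TA-3, had B cell (339701) and plasma cell (115272) sums above every D3TA library. Of that plasma cell sum, however, 84077 was Jchain alone. Xbp1 (4716), Mzb1 (8385) and Txndc5 (4054) of WT-2 lay below both D3TA-2 and D3TA-3, while others, such as Tnfrsf13b (2889) and Ssr4 (4032), lay above both. The part of these markers in the Igkv differences was not tested.

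Germinal centres, where activated B cells divide and mutate their V segments, had markers that varied by mouse. The 8 germinal centre genes listed summed to 5901 in D3TA-3, against 1048 and 2398 in the other D3TA libraries and 1708 to 2230 in WT. Gcsam, S1pr2 and Mef2b were at 1692, 1291 and 763 in D3TA-3 and at most 340, 289 and 399 elsewhere. Of the 8, 5 lay above 0 and 3 below, where 45.5% of all tested genes lay below 0, and 0 were called in limma. Rgs13 was at 0, 47.5 and 9.51 in D3TA and 153, 145 and 154 in WT, without overlap. These 4 genes were named after their values were seen. D3TA-3 was also the library led by Igkv17-127 and Igkv5-39, and the part of these markers there was not tested. Of the genes for recombination and the surrogate light chain, Vpreb3 and Dntt passed the filter and lay below 0, with log2 differences of -2.75 ± 0.44 and -2.44 ± 0.67. The others listed were too low to be tested, and their groups overlapped. Igll1 and Vpreb1 were at no more than 8.08 and 9.09 in any library. Rag1 and Rag2 were at 91.8 and 24.6 in WT-2 and at no more than 3.82 and 0 elsewhere. All 10 neutrophil genes lay above 0, where 8486 of all 15564 tested genes did. The summed neutrophil counts were 82806 to 457829 in D3TA and 12472 to 28381 in WT. The order of the 3 D3TA libraries by summed neutrophil counts was the reverse of their order by Igkv total. This did not hold in WT, where WT-3 had the highest neutrophil sum, 28381. Its Igkv total of 75218 lay above the 31268 of WT-2, whose neutrophil sum was 12909. The part of neutrophil RNA in the Igkv levels was not tested.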

How the data were processed

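Polyadenylated RNA of spleen cells from 3 D3TA and 3 WT mice was sequenced. Per the submitters' processing notes, CASAVA, FastQC, Trim Galore, HISAT2 and DESeq2 were used with build mm10. The counting program and its treatment of reads that match several segments are not given in the sources used here, nor is strandedness stated. The deposited values are a signal: read counts the authors had divided by 1 size factor per library. Dividing by the value of 1 read gave whole reads (within 0.001) for 100% of 149436 values. GENCODE M21, on GRCm38 (mm10), held 24860 of 24906 identifiers.

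The 15564 genes that reached a normalized count of 10 in 3 or more libraries entered limma 3.58.1 (trend, robust) on a log2(value + 1) scale, with genotype as its factor. P-values are 2-sided with Benjamini-Hochberg adjustment over all of them. A run of the fit on simulated counts checked only that large planted changes are recovered, and not the p-values. That scale understates changes of low genes. Igkv sums, shares and indices have no test. With 3 against 3, an exact permutation test cannot go below 0.1. Shares are of Igkv reads, and 3 reads amount to 2.59 to 3.36 normalized counts. Alternatives used edgeR 4.0.16, DESeq2 1.42.0, other scalings, filters and pseudocounts, terms for hemoglobin-rich libraries and for libraries with Y-linked reads, and left-out libraries. Segments are named as the 8 with the highest mean share, each library's leader, and the 6 lower and 3 higher with the smallest p, and Igkc and Igkj genes are added. Members and lists were chosen with earlier results of these data known.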

Additional observations from a re-analysis of the deposited data

How the results depend on the processing

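The count of 0 called segments in limma became 2 without a filter (Igkv10-94 and Igkv4-69), 1 with a term for the hemoglobin split and 1 with a term for Y-linked reads (Igkv3-4 each time) and 16 in DESeq2, and ranged from 0 to 13 when 1 library was left out. With the replicate number as a block it stayed at 0, with 37 segments lower at an unadjusted p under 0.05 (3.49% of all genes) and a median log2 difference of -1.48. The numbers did not pair the mice, since the deviations of same-numbered libraries correlated at -0.06, -0.005 and -0.13. The median log2 difference of tested segments stayed between -2.14 and -1.01 in the 20 alternatives. The log2 ratio of the Igkv totals ranged from -1.52 to -0.74 when 1 library was left out and was -1.11 without the segments that share a 100-base window. The difference in top 5 share was 6.67 to 14.6 points and that in the effective number -11.0 to -4.31 when 1 library was left out. Of 423 alternative values of the 22 named genes, 22 changed sign. With 1 library left out, Igkv2-109 ranged from -2.10 to 2.02, Igkv17-127 from -2.56 to 0.20, Igkv8-30 from -1.71 to 0.25, Igkv4-91 from -0.0724 to 1.63, Igkv4-90 from -0.25 to 1.83, Igkj3 from -0.61 to 1.77, Igkj4 from -0.68 to 0.26 and Igkj5 from -0.83 to 0.96. A hemoglobin term put Igkv2-109 at -0.0604 and Igkv17-127 at 0.0587. Leaving out D3TA-1 together with WT-2 put Igkv17-127 at 0.51, Igkj3 at -0.0898, Igkj4 at 0.0516 and Igkj5 at 0.32. In edgeR and DESeq2, Igkv17-127 was at 0.913 and 0.915 and Igkj5 at 0.23 and 0.24. The cause of these changes was not tested. The fit without both libraries, the shares per exon length and the totals without each library's top 5 were chosen after seeing the data. Depth limits segments near the filter level, whose values are a few reads.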
